A study of Mus musculus with 12 samples.

Results

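The peroxisomal genes described here were 33 mouse genes for peroxisome biogenesis and peroxisomal lipid oxidation, taken by symbol from a table of 23474 genes measured in epididymal white adipose tissue (eWAT). They were 13 peroxins, which build and maintain the organelle, and 20 enzymes and transporters that act in it. Each symbol matched 1 row of the table through its mouse Ensembl identifier. Of the 33 genes, 32 were detected and passed the expression filter of each comparison, set at 1 FPKM on average in the libraries compared. FPKM is the number of sequenced fragments scaled to transcript length and library depth. The remaining gene, Pex6, was listed at 0 in all 12 libraries, as were Cav2 and Myl12b, so that a 0 may be a failed estimate.

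Peroxisomes shorten very long-chain fatty acids by β-oxidation, remove the carboxyl carbon of phytanic acid by α-oxidation, so that the branched chain can enter β-oxidation, start the synthesis of ether lipids such as plasmalogens, and break down the hydrogen peroxide that their oxidases make. Their matrix proteins are made in the cytosol. PEX5 and PEX7 carry them to a docking complex of PEX13 and PEX14, a ubiquitin ligase that includes PEX2 and PEX10 marks the receptor, and PEX6 with its membrane anchor PEX26 extracts it. PEX3, PEX16 and PEX19 insert membrane proteins, and the PEX11 proteins act in division. Adipocytes contain small peroxisomes, which take part in the oxidation of very long-chain fatty acids and in the supply of ether lipids.

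The samples were eWAT of male C57BL/6J mice that were 17 weeks old and had been on their diet for 12 weeks, from 5 weeks of age. The ND group received a normal diet and the HFD group a high-fat diet. The GT group received the high-fat diet with 0.25% (w/w) of an ethanol extract of green tea, and the TJ group the high-fat diet with 3% (w/w) of Taeeumjowitang, a herbal prescription. Each group held 10 mice by the labels and 3 sequenced libraries. The comparison of TJ with HFD asks what the prescription changes in the eWAT of obese mice, and the GT and ND groups were set beside it. The HFD libraries served in 3 of the 4 comparisons, so that these comparisons are not independent of each other. In whole tissue, fewer cells of a type cannot be told apart from less RNA per cell.

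The library labelled ND replicate 1 went against its tissue label. The summed level of 7 testis germ cell markers was 96790 FPKM in it, and that of 6 epididymis markers 13474 FPKM, while its 8 adipocyte markers summed to 7152 FPKM against 17434 to 68463 in the other 11 libraries. It held the lowest value of the 12 libraries for 28 of the 32 detected peroxisomal genes. Germ cell markers also summed to 2741 FPKM in ND replicate 3 and to 1956 FPKM in HFD replicate 1, and epididymis markers to 1275 FPKM in HFD replicate 2. All comparisons with ND are therefore given with and without ND replicate 1.

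The promoters of the genes that the results turn on are shown as the 250 bases before the RefSeq start, 5′ to 3′, because peroxisome proliferator-activated receptors are known to switch on many genes of this organelle from such regions. Phyh had the largest log2 fold change of the 32 genes in TJ against HFD, Scp2 the highest mean level in the HFD group, and Agps was the gene called lower in the TJ group. Capitals mark the core motif of nuclear receptors (AGGTCA), a GC box (GGGCGG) or a CCAAT box on either strand (build GRCm38.p6).
Phyh, chr2:4918746-4918995, plus strand: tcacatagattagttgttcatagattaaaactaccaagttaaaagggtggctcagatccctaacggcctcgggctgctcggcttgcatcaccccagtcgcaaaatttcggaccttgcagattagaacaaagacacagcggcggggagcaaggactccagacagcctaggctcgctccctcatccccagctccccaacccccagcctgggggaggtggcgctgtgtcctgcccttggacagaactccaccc
Scp2, chr4:108118548-108118797, minus strand: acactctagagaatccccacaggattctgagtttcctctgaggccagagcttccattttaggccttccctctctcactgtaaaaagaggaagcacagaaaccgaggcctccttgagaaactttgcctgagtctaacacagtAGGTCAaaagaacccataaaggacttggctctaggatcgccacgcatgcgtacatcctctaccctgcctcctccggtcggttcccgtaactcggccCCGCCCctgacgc
Agps, chr2:75831927-75832176, plus strand: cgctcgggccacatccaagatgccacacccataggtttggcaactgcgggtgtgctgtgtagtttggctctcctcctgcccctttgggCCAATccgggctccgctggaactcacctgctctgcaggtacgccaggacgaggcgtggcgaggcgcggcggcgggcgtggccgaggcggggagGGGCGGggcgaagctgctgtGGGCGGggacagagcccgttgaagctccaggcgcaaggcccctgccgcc
The Phyh region held none of these motifs, the Scp2 region held a core motif and a GC box, and the Agps region held GC boxes and a CCAAT box. The G and C content was 56.4% in the Phyh region, 53.6% in the Scp2 region and 70% in the Agps region. The Scp2 region shown lies inside the longer Scp2 gene of the GENCODE annotation, in none of its exons.

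Promoters with the 50 bases after the start were on hand for 28 of the 33 genes and were searched on both strands. The receptor element of 2 core motifs in direct repeat with 1 base between them (AGGTCANAGGTCA) was found in 0 of the 28, and in 0.0481% of the promoters of 27025 genes. A looser form (AGGNCANAGGNCA), which includes the first, was also found in 0 of the 28, and in 0.451% of all promoters. The single core motif, which is part of both, occurred in 4 of the 28 (14.3%), those of Cat, Pex11g, Phyh and Scp2, against 18.1% of all promoters and 15.1% of the promoters of 9936 tested genes. In Phyh it lay after the start. A GC box occurred in 23 of the 28 promoters (82.1%), against 38.2% of all promoters and 67.6% of those of tested genes. A CCAAT box occurred in 13 (46.4%, against 41.1% of all and 42.5% of tested promoters), TATAAA in 3 (10.7%, against 15.7% and 8.9%) and CACGTG in Gnpat alone (3.57%, against 8.09% and 11.6%). A match is only a stretch of letters, and the lack of one says only that these letters were not in the window.

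In the eWAT of HFD mice, the 4 most abundant of the peroxisomal transcripts were those of enzymes. On the FPKM scale, which is per length, Scp2, whose products are a peroxisomal thiolase and a sterol carrier protein, had the highest mean level at 524 ± 27.8 FPKM (SD, n = 3). Cat, the catalase that breaks down hydrogen peroxide, followed at 275 ± 27.3 FPKM, and Ech1, a dienoyl-CoA isomerase of unsaturated fatty acid oxidation, at 228 ± 14.8 FPKM. The ranges of these 3 genes did not overlap in the HFD libraries. Hsd17b4, the D-bifunctional enzyme of β-oxidation, came next with a mean level of 159 FPKM.

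The most abundant peroxin was Pex19, the import receptor of membrane proteins, with a mean level of 123 FPKM, and 97.3% of all genes had a lower level. Phyh, the hydroxylase that starts α-oxidation of phytanic acid, stood eleventh at 55 FPKM, next to Pex16 at 55.3 FPKM, and the ranges of the pair overlapped. The ether lipid enzyme Agps stood at 15.6 FPKM. The lowest detected levels were those of Amacr, a racemase of branched-chain acyl-CoA, at 4.27 FPKM and Pex26 at 4.28 FPKM, and their ranges overlapped as well.

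**Figure D1:**
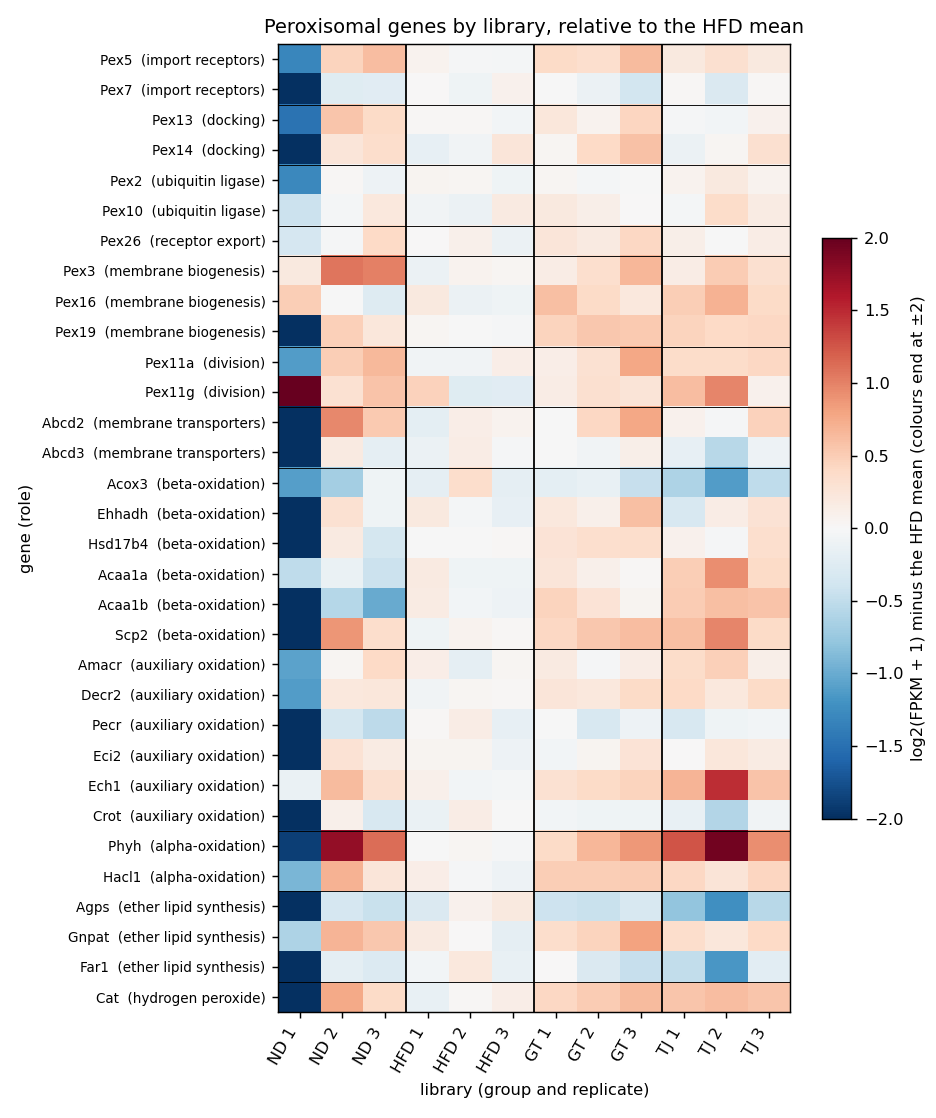
Each row is 1 of the 32 detected peroxisomal genes with its role, each column 1 library, and the colour is log2(FPKM + 1) minus the mean of the 3 HFD libraries, with the scale ending at 2 in either direction. ND replicate 1 is blue for most genes, the Phyh row is red in ND replicates 2 and 3 and in all GT and TJ libraries, and the Agps row is blue in all GT and TJ libraries.

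In the TJ group, the α-oxidation enzyme Phyh, the isomerase Ech1 and the thiolase gene Scp2 were significantly higher than in the HFD group, and Agps, the second enzyme of ether lipid synthesis, was significantly lower. A gene was called when limma gave a Benjamini-Hochberg adjusted p-value under 0.05 over the 12807 genes tested and a fold change of at least 1.5, which is 0.58 on the log2 scale. The 3 genes called higher were 9.38% of the 32 tested, and 7.41% of all genes tested were called higher. The single gene called lower was 3.12% of the 32, against 11.1% of all genes tested. Over all genes, 949 were called higher and 1417 lower, whereas median-of-ratios scaling gave 1285 and 1082 and quantile normalization 1542 and 1119. These scalings moved the median log2 fold change of all genes from -0.14 to -0.02 and 0.03. The share of the 32 genes called higher differed between these settings. It was 21.9% (7 genes, against 10.0% of all genes tested) with median-of-ratios scaling, 6.25% (2 genes, against 12.0%) with quantile normalization and 12.5% (4 genes, against 9.24%) with the trend of fold change on transcript length removed. The genes called lower were 1, 1 and 0 in the same order, against 8.45%, 8.74% and 4.19% of all genes tested.

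The libraries of the TJ and HFD groups did not overlap for 18 of the 32 genes. For 15 of them (46.9%) every TJ library was above every HFD library, against 20.1% of all genes tested, and for 3 of them (9.38%) every TJ library was below, against 31.4% of all genes tested. The median log2 fold change was 0.21 over the 32 genes and -0.14 over all genes tested. It was above 0 for 25 of the 32 genes. With the called genes counted in, 11 of the 32 were higher and 3 lower at an unadjusted p-value under 0.05, against 16.4% and 24.9% of all genes tested.

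The difference was largest for Phyh. Its level was 54.9, 56.2 and 53.8 FPKM in the HFD libraries and 133, 212 and 106 FPKM in the TJ libraries. The groups were well apart, and TJ replicate 2 was the highest of all 12 libraries. The log2 fold change was 1.38 ± 0.25 (SE, adjusted p = 0.0248 by limma). Without TJ replicate 2 it was 1.10, with an adjusted p-value of 0.00611.

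Ech1 and Scp2 were high in every HFD library and higher in every TJ library. The Ech1 level was 245, 218 and 221 FPKM in the HFD group and 365, 638 and 337 FPKM in the TJ group. TJ replicate 2 again stood above the rest, and the log2 fold change was 0.91 ± 0.25 (SE, adjusted p = 0.0468 by limma) with it and 0.62 (adjusted p = 0.0153) without it. The Scp2 level was 494, 548 and 531 FPKM in the HFD group and 797, 1028 and 687 FPKM in the TJ group. The Scp2 log2 fold change was 0.66 ± 0.18 (SE, adjusted p = 0.0469 by limma). Without TJ replicate 2 it was 0.50 (adjusted p = 0.0331), under the fold required for a call, and with quantile normalization it was 0.27 (adjusted p = 0.204), under both thresholds. The GENCODE span of Scp2 overlaps that of Podn on the same strand.

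**Figure D2:**
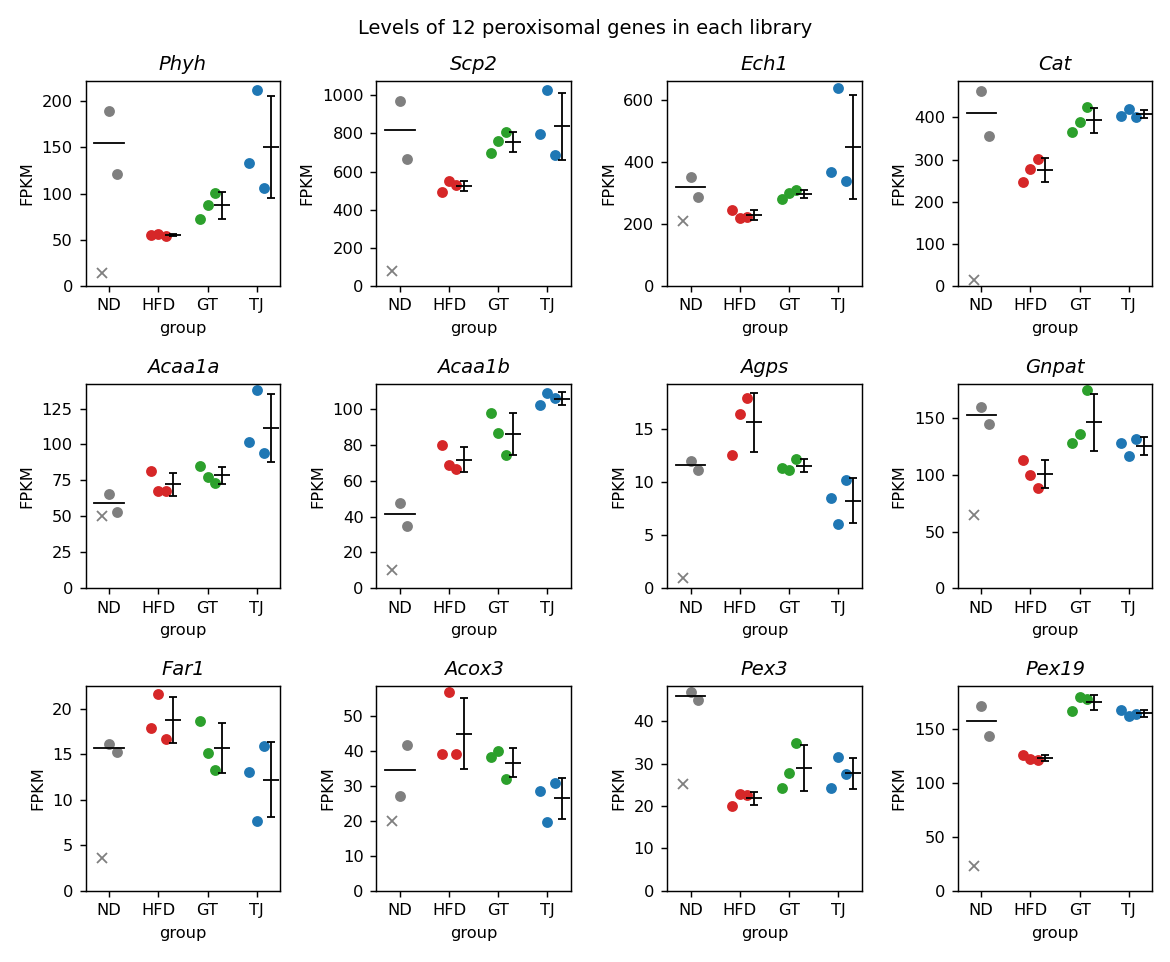
Each panel gives the FPKM of 1 gene in every library of the 4 groups on a linear axis from 0, with points for libraries, a cross for ND replicate 1, bars for the mean ± SD of the 3 libraries of HFD, GT and TJ, and a line for the mean of ND replicates 2 and 3. Phyh lay between 53.8 and 56.2 FPKM in the HFD libraries and at 72.3 FPKM or more in every GT and TJ library.

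Of the 6 enzymes of the β-oxidation cycle, 1 was called higher, Scp2, and 0 were called lower, against 7.41% and 11.1% of all genes tested. Acaa1b, a 3-ketoacyl-CoA thiolase of the last step, was at 79.7, 68.8 and 66.4 FPKM in the HFD libraries and at 102, 109 and 106 FPKM in the TJ libraries. The groups did not overlap, and the log2 fold change of 0.56 ± 0.13 (SE) passed the adjusted p-value (0.0346 by limma) and missed the fold. Its near-identical neighbour Acaa1a had a log2 fold change of 0.61 ± 0.18 (SE, adjusted p = 0.0551), again with no overlap. Reads could have been split between these paralogs, so that their separate values are uncertain.

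Acox3, an oxidase for branched-chain acyl-CoA and the enzyme of the first step, was not called. Its level was 39.1, 56.8 and 39.1 FPKM in the HFD libraries and 28.6, 19.8 and 31.0 FPKM in the TJ libraries, with no overlap and a log2 fold change of -0.75 ± 0.22 (SE, adjusted p = 0.0545). The second-step enzymes Ehhadh and Hsd17b4 had log2 fold changes of 0.04 ± 0.19 and 0.14 ± 0.14 (SE), and their groups overlapped. Cat was at 246, 278 and 301 FPKM in the HFD libraries and at 404, 419 and 402 FPKM in the TJ libraries. All TJ libraries were above all HFD libraries, and the log2 fold change of 0.57 ± 0.14 (SE, adjusted p = 0.0361 by limma) fell just short of the fold required.

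Ether lipid synthesis runs from GNPAT to AGPS, with fatty alcohol from FAR1. Agps was at 12.5, 16.4 and 17.9 FPKM in the HFD libraries and at 8.52, 6.04 and 10.2 FPKM in the TJ libraries. Each TJ library was below each HFD library, and the log2 fold change was -0.86 ± 0.21 (SE, adjusted p = 0.0386 by limma). Far1 was likewise below in each TJ library, with a log2 fold change of -0.63 ± 0.25 (SE, adjusted p = 0.109). Gnpat lay above in each TJ library, with a log2 fold change of 0.32 ± 0.14 (SE, adjusted p = 0.133). The annotated transcripts of Agps cover 7359 nt, and with the trend of fold change on transcript length removed its log2 fold change was -0.42 (adjusted p = 0.204), under both thresholds.

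Among the 12 detected peroxins, 0 were called in TJ against HFD by limma, against 7.41% of all genes tested called higher and 11.1% lower. At an unadjusted p-value under 0.05, 3 of the 12 were higher and 0 lower, against 16.4% and 24.9% of all genes tested. Groups did not overlap for 6 of the 12, all with higher TJ levels (50%, against 20.1% of all genes tested). Pex19 was at 126, 122 and 121 FPKM in the HFD libraries and at 168, 162 and 164 FPKM in the TJ libraries. These were tight and separate groups, and the log2 fold change of 0.41 ± 0.12 (SE) passed the adjusted p-value (0.0486 by limma) and missed the fold. Pex16 had a log2 fold change of 0.53 ± 0.15 (SE, adjusted p = 0.0504), the division factor Pex11a one of 0.38 ± 0.12 (SE, adjusted p = 0.0587), and Pex3 one of 0.33 ± 0.14 (SE, adjusted p = 0.125). The receptor Pex7, which imports PHYH, AGPS and the ACAA1 thiolases, had a log2 fold change of -0.08 ± 0.14 (SE), and the docking proteins Pex13 and Pex14 had 0.00 ± 0.12 and 0.08 ± 0.17.

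**Figure D3:**
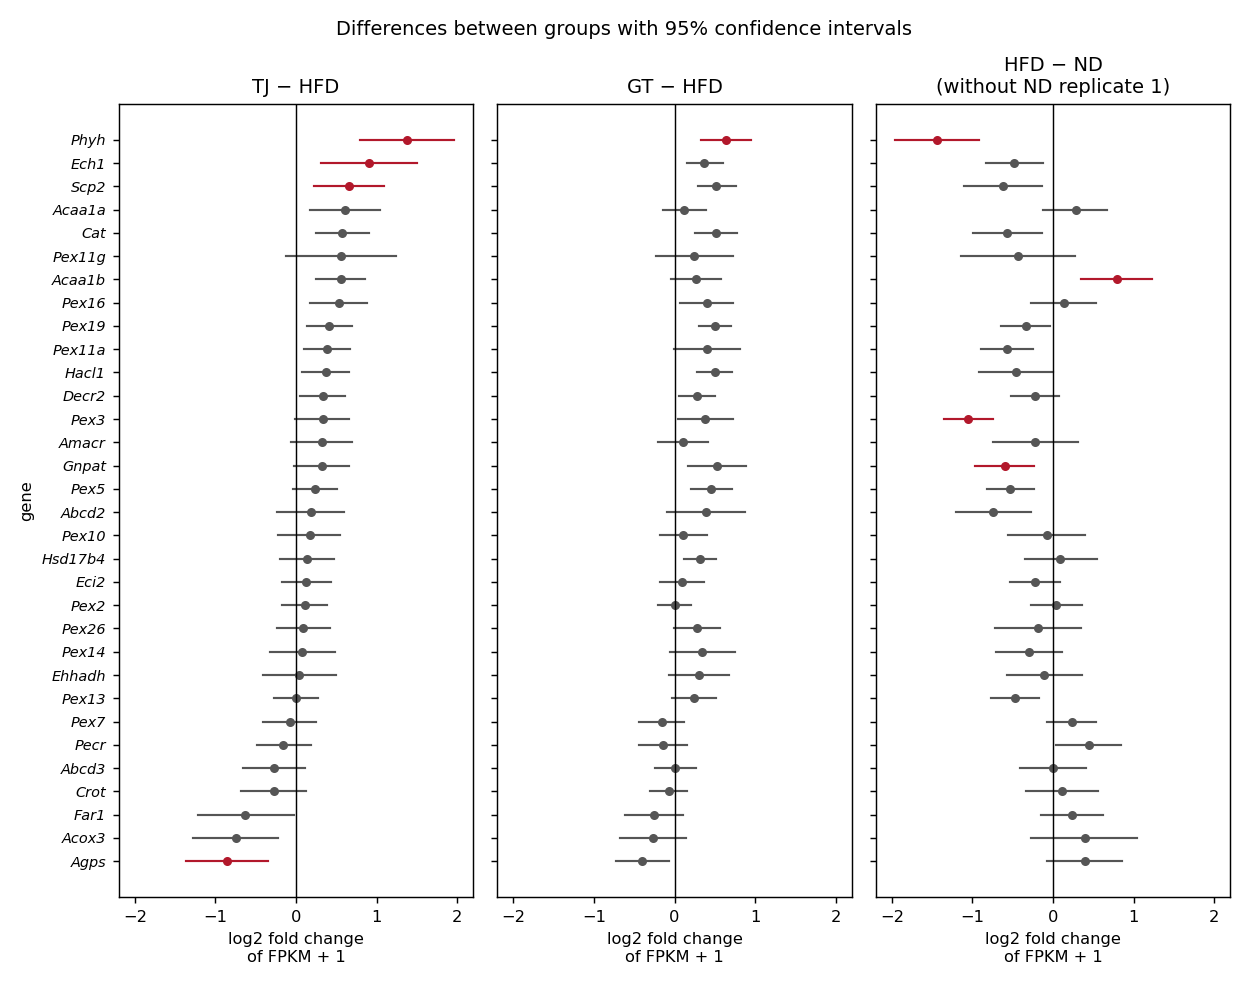
Points give the log2 fold change of FPKM + 1 for each detected gene and lines its 95% confidence interval from limma, for TJ minus HFD, GT minus HFD and HFD minus ND without ND replicate 1, with called genes in red. Phyh was called in all 3 panels, at 1.38, 0.64 and -1.44, and Agps lay at the bottom of the first panel at -0.86.

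The calls rested on small groups. With HFD replicate 1, 2 or 3 or TJ replicate 1 left out in turn, 0 of all genes tested were called by limma, although between 3732 and 4735 of them had an unadjusted p-value under 0.05, and the log2 fold change of Phyh stayed between 1.36 and 1.43. Without HFD replicate 1, which held germ cell transcripts, the adjusted p-values were 0.0575 for Phyh (1.37), 0.0849 for Ech1 (0.96), 0.118 for Scp2 (0.61) and 0.0603 for Agps. Without HFD replicate 2, which held epididymis transcripts, they were 0.0857 for Phyh (1.39), 0.134 for Ech1 (0.88), 0.125 for Scp2 (0.69) and 0.119 for Agps. All of these differences kept their direction and lost the call. Without TJ replicate 2 the peroxisomal genes called were 2 higher and 1 lower, against 6.19% and 9.53% of all genes tested. Without TJ replicate 3 they were 5 higher and 3 lower, against 9.67% and 16.8%. With all groups except ND replicate 1 in the fit, an alternative chosen after seeing the data, 4 were called higher and 2 lower, with Acaa1a (adjusted p = 0.0252) and Acox3 (adjusted p = 0.0339) added, against 9.49% and 14.0% of all genes tested.

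Markers of other cell types moved with the TJ group. The 8 adipocyte markers summed to 17434 to 19920 FPKM in the HFD libraries and to 30884 to 68463 FPKM in the TJ libraries, with the highest sum in TJ replicate 2, and 6 of the 8 were called higher. Of the other two, Lep lay the other way, at 292 to 825 FPKM in the TJ libraries and 899 to 1196 FPKM in the HFD libraries. The 10 macrophage markers summed to 3534 to 4921 FPKM in the HFD libraries and to 879 to 2547 FPKM in the TJ libraries, with the lowest sum in TJ replicate 2, and 7 of the 10 were called lower. TJ replicate 2 also held the highest value of the TJ group for 14 of the 32 peroxisomal genes and the lowest for 15. The part of these markers in the peroxisomal differences was not tested.

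**Figure D4:**
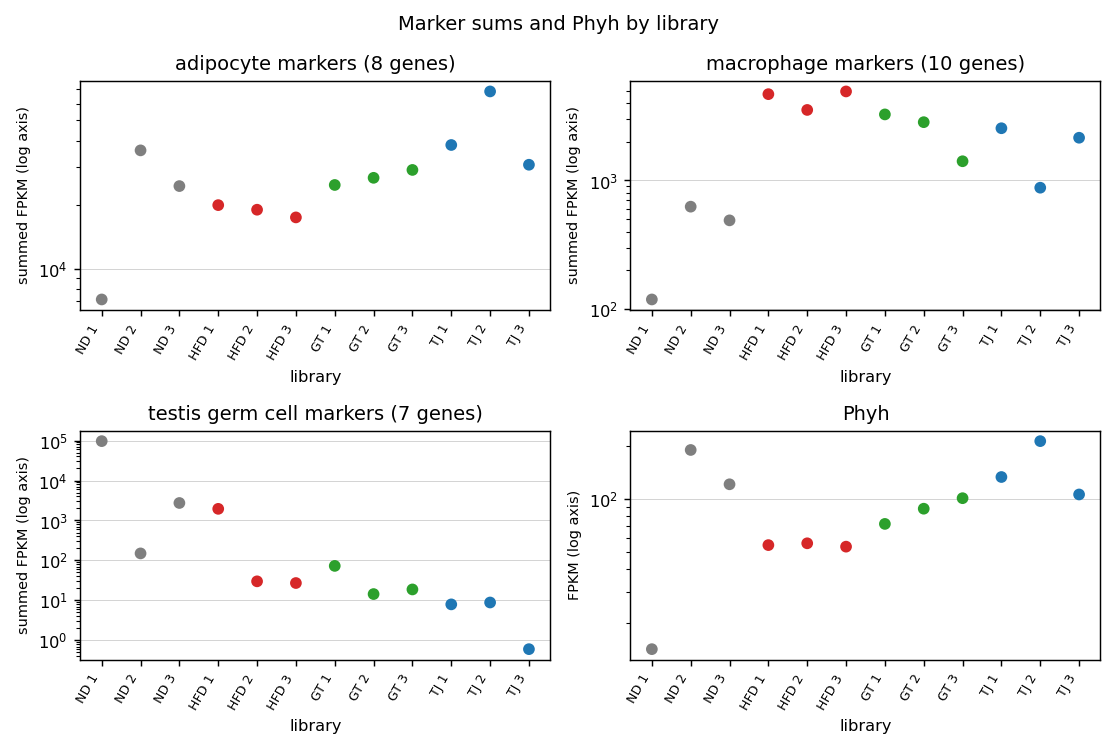
The panels give, on log axes, the summed FPKM of 8 adipocyte, 10 macrophage and 7 testis germ cell markers and the FPKM of Phyh in each library, coloured by group. The adipocyte sum was highest in TJ replicate 2 at 68463 FPKM, where Phyh was highest too, and the germ cell sum was highest in ND replicate 1 at 96790 FPKM, where Phyh was lowest.

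In the GT group, Phyh was significantly higher than in the HFD group, and it was the sole gene called of the 32. Its level was 72.3, 88.1 and 101 FPKM in the GT libraries, all above the HFD libraries and below the TJ libraries. The log2 fold change was 0.64 ± 0.13 (SE, adjusted p = 0.0482 by limma over 12766 genes). This made 3.12% of the 32 genes called higher, against 1.83% of all genes tested. The count called lower was 0, against 1.81% of all genes tested, and 12 genes were higher and 1 lower at an unadjusted p-value under 0.05, against 9.98% and 19.3% of all genes tested. With all groups except ND replicate 1 in the fit, the adjusted p-value of Phyh was 0.235 and 0 of the 32 were called. The call was also lost without HFD replicate 1 (adjusted p = 0.0769), HFD replicate 2 (0.125), HFD replicate 3 (0.163), GT replicate 2 (0.188) or GT replicate 3 (0.09).

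For 15 of the 32 genes (46.9%) every GT library was above every HFD library, against 12.3% of all genes tested, and for Agps alone (3.12%) every GT library was below, against 24.4% of all genes tested. The median log2 fold change was 0.28 over the 32 genes and -0.12 over all genes tested. Over all genes, 233 were called higher and 231 lower, and the counts were 399 and 145 with median-of-ratios scaling and 407 and 163 with quantile normalization. Of the 32 genes, 4 were called higher with median-of-ratios scaling (12.5%, against 3.13% of all genes tested), 2 with quantile normalization (6.25%, against 3.19%) and 6 with the length trend removed (18.8%, against 4.32%). In the same order, 0, 0 and 0 were called lower by limma, against 1.14%, 1.28% and 1.00%. Pex19, Hacl1 and Scp2 passed the adjusted p-value and missed the fold. Pex19 was at 167, 180 and 178 FPKM in the GT libraries, with a log2 fold change of 0.50 ± 0.08 (SE, adjusted p = 0.0379 by limma). Hacl1, the lyase that follows PHYH in α-oxidation, was at 16.4, 14.6 and 13.9 FPKM in the HFD libraries and at 21.4, 21.5 and 21.6 FPKM in the GT libraries, with a log2 fold change of 0.50 ± 0.09 (SE, adjusted p = 0.0415). Both groups of Hacl1 values were tight and far apart, although its span overlaps Btd on the opposite strand and the library kit named in the labels does not mark strand.

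Scp2 had a GT level of 699, 758 and 806 FPKM and a log2 fold change of 0.52 ± 0.10 (SE, adjusted p = 0.0436 by limma). Cat, at 366, 389 and 425 FPKM, had a log2 fold change of 0.52 ± 0.11 (SE, adjusted p = 0.0515), and Pex5, the main matrix import receptor, had 0.45 ± 0.11 (SE, adjusted p = 0.0601). All 3 genes had GT libraries above all HFD libraries. Gnpat had a log2 fold change of 0.53 ± 0.15 (SE, adjusted p = 0.0835), Ech1 0.37 ± 0.09 (adjusted p = 0.0668), Hsd17b4 0.32 ± 0.08 (adjusted p = 0.0679) and Agps -0.40 ± 0.14 (adjusted p = 0.122). The adipocyte markers summed to 24793 to 29192 FPKM and the macrophage markers to 1411 to 3262 FPKM in the GT libraries. Both sums lay apart from those of the HFD group, with 3 of 8 adipocyte markers called higher and 0 of 10 macrophage markers called by limma (10 lower at an unadjusted p-value under 0.05), and their part in the differences was not tested.

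The TJ and GT groups were compared directly, since a call against HFD in one group and not in the other does not show that the groups differ. Of the 32 genes, 0 were called by limma, and 0.148% of the 12187 genes tested were called. At an unadjusted p-value under 0.05, 2 of the 32 were higher and 2 lower, against 14.9% and 9.66% of all genes tested. All TJ libraries lay above all GT libraries for Phyh, with a log2 fold change of 0.73 (95% confidence interval 0.12 to 1.34, adjusted p = 0.165). Acaa1a was also higher in each TJ library, at 0.48 (0.07 to 0.90, adjusted p = 0.171). Agps and Acox3 were lower in each TJ library, at -0.46 (-0.90 to -0.02, adjusted p = 0.19) and -0.48 (-0.93 to -0.03, adjusted p = 0.188). Ech1 had a difference of 0.53 (-0.06 to 1.12, adjusted p = 0.231).

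In the comparison of HFD with ND, 0 of the 32 genes were called by limma with all 6 libraries, and 1.77% of the 14430 genes tested were called. At an unadjusted p-value under 0.05, 1 of the 32 was higher and 0 were lower, against 9.84% and 1.75% of all genes tested. Without ND replicate 1, the thiolase Acaa1b was significantly higher in the HFD group than in the ND group, and Phyh, Pex3 and Gnpat were significantly lower. The ND group then held 2 libraries, and 13661 genes were tested. The gene called higher was 3.12% of the 32, against 11.0% of all genes tested, and the 3 genes called lower were 9.38%, against 4.34% of all genes tested. These calls come from a fit without the replicate numbers, although the numbers of HFD and ND libraries were taken as paired. With the replicate block and without ND replicate 1, which leaves 2 pairs and was added after seeing the data, 0 of the 32 genes were called by limma, and 1 was higher and 6 were lower at an unadjusted p-value under 0.05, against 13.0% and 7.64% of all genes tested. Of all genes tested, 3.18% were then called higher and 0.483% lower. The log2 fold changes in that fit were -1.44 for Phyh (adjusted p = 0.0611), -0.99 for Pex3 (0.0853), -0.69 for Gnpat (0.147) and 0.71 for Acaa1b (0.171). Without the block, groups did not overlap for 6 genes with higher HFD levels (18.8%, against 28.0% of all genes tested) and for 15 genes with lower HFD levels (46.9%, against 19.2%). The median log2 fold change was -0.22 over the 32 genes and -0.02 over all genes tested. With ND replicate 1 the median lay the other way, at 0.48 over the 32 genes and 0.07 over all genes tested, and 23 of the 32 values were above 0. Groups then did not overlap for 6 genes with higher HFD levels (18.8%, against 20.5%) and for 1 gene with lower HFD levels (3.12%, against 5.89%).

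Pex3, the docking factor for membrane protein insertion, was at 25.2, 47.0 and 45.0 FPKM in ND replicates 1 to 3 and at 20.0, 22.9 and 22.5 FPKM in the HFD libraries. Every ND library was above every HFD library, ND replicate 1 included. The log2 fold change was -1.05 ± 0.12 (SE, adjusted p = 0.00594 by limma) without ND replicate 1 and -0.76 (adjusted p = 0.463) with it. The span of Pex3 overlaps Adat2 on the opposite strand.

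Phyh was at 14.2, 189 and 121 FPKM in ND replicates 1 to 3, so that ND replicate 1 was below and the other two were above the HFD libraries. The log2 fold change was -1.44 ± 0.21 (SE, adjusted p = 0.0114 by limma) without ND replicate 1 and -0.33 (adjusted p = 0.855) with it. Gnpat was at 65.0, 160 and 145 FPKM in the ND libraries and at 113, 100 and 88.2 FPKM in the HFD libraries, with a log2 fold change of -0.60 ± 0.14 (SE, adjusted p = 0.0484) without ND replicate 1 and -0.20 (adjusted p = 0.809) with it. For both genes the call was made without that library and without the block. The span of Gnpat overlaps genes of the table on both strands.

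Acaa1b was at 10.3, 47.8 and 35.0 FPKM in the ND libraries, each below each HFD library. The log2 fold change was 0.79 ± 0.18 (SE, adjusted p = 0.0399 by limma) without ND replicate 1 and 1.42 (adjusted p = 0.428) with it. Pex5 (-0.53, adjusted p = 0.0385) and Pex11a (-0.57, adjusted p = 0.041) passed the adjusted p-value and missed the fold without ND replicate 1, and were at 0.08 and -0.01 with it. With the replicate block and without ND replicate 1, the limma adjusted p-values of Pex5 and Pex11a were 0.214 and 0.224. Abcd2, a transporter of very long-chain acyl-CoA, had a log2 fold change of -0.75 (adjusted p = 0.0529), Scp2 one of -0.62 (adjusted p = 0.0887) and Cat one of -0.57 (adjusted p = 0.0827) without ND replicate 1. With it, these 3 values were above 0, at 1.04, 0.50 and 1.05. The macrophage markers summed to 490 to 626 FPKM in ND replicates 2 and 3, far under the HFD sums, and 10 of 10 were called higher in the HFD group without ND replicate 1. The adipocyte markers summed to 24497 to 36100 FPKM, above the HFD sums, with 6 of 8 called lower and 1 higher in the HFD group. In the same ND libraries the progenitor and stromal markers summed to 848 to 984 FPKM, against 1424 to 1505 FPKM in the HFD libraries, with 2 of 5 called higher in the HFD group, and the mesothelial markers to 22.8 to 36.8 FPKM, against 8.4 to 11 FPKM, with 2 of 4 called lower. The part of these markers in the peroxisomal differences was not tested.

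Other genes of the organelle were followed in a list of 49 found in the table. In TJ against HFD, 10 of the 36 tested were called higher (27.8%, against 7.41% of all genes tested) and 1 lower (2.78%, against 11.1%). Pxmp2, a channel protein of the peroxisomal membrane, had the largest value, with a log2 fold change of 1.57 ± 0.24 (SE, adjusted p = 0.0219 by limma) from a mean of 6.08 ± 1.51 FPKM in the HFD group to 20.2 ± 5.45 FPKM in the TJ group (SD, n = 3). The next of those called were Mlycd, malonyl-CoA decarboxylase, at 0.98, the glutathione transferase Gstk1 at 0.96, the peroxisomal protease Lonp2 at 0.82, the polyamine oxidase Paox at 0.82 and the peroxiredoxin Prdx5 at 0.81. Several of these proteins also work outside the peroxisome.

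In GT against HFD, 5 of 38 tested genes of this list were called higher (13.2%, against 1.83% of all genes tested) and 0 lower (against 1.81%). At an unadjusted p-value under 0.05, 12 were higher and 2 lower, against 9.98% and 19.3% of all genes tested. Those called were Pxmp2 (1.02), the acyl-CoA dehydrogenase Acad11 (0.76), the epoxide hydrolase Ephx2 (0.70), Acbd4 (0.69) and the membrane protein Pxmp4 (0.65). With HFD replicate 1, 2 or 3 or GT replicate 2 or 3 left out in turn, 0 of this list were called. In these fits, 1 to 39 of all genes tested were called higher. In HFD against ND without ND replicate 1, 2 of 39 tested were called higher (5.13%, against 11.0% of all genes tested) and 4 lower (10.3%, against 4.34%). The NADPH-forming isocitrate dehydrogenase Idh1 (1.24) was among those called higher. The D-aspartate oxidase Ddo (-1.32), Acad11 (-1.25), Ephx2 (-0.71) and Pxmp4 (-0.70) were called lower. With the replicate block and without ND replicate 1, 0 of the 39 were called by limma, against 3.18% of all genes tested called higher and 0.483% lower. At an unadjusted p-value under 0.05, 3 were higher and 5 lower, against 13.0% and 7.64% of all genes tested. With ND replicate 1 and without the block, 0 of the 39 were called by limma, against 1.77% of all genes tested. At an unadjusted p-value under 0.05, 2 were higher and 0 lower, against 9.84% and 1.75% of all genes tested.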

How the data were processed

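The data were FPKM values for 12 eWAT libraries, 3 per group. The authors filtered the reads, mapped them with STAR and computed FPKM with Cufflinks, masking noncoding regions and correcting for multireads and fragment bias. The submitters' processing notes give CASAVA 1.8.2, STAR 2.4.0 and Cufflinks 2.1.1. The methods name the human genome, whereas all 23474 identifiers of the deposited FPKM table are mouse identifiers. FPKM gives no counting error, read depth was not estimated here, and the precision rests on the spread between libraries. The library FPKM sums ranged from 527904 to 725245, apart from 1.00277e+06 in ND replicate 1. No libraries held identical values. The methods describe 3 mice for HFD and for TJ, and neither they nor the labels say whether the GT and ND libraries came from separate mice. For comparisons with GT or ND, p-values then measure only the spread between these libraries, which may be technical in those groups.

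Gene names, spans and lengths came from GENCODE mouse release M21 (GRCm38), which matched 22671 identifiers. Promoters came from RefSeq (GRCm38.p6). The tests used limma 3.58.1 under R 4.3.3, with lmFit and a trended eBayes, on log2(FPKM + 1), with the 6 libraries of the comparison, a mean of at least 1 FPKM, and Benjamini-Hochberg adjustment over all genes tested. Fold changes on this scale understate changes of low genes. The script was tested on simulated data. Tables and figures were made in python 3.11.15 with pandas 2.3.3, numpy 2.4.6 and matplotlib 3.10.9.

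The genes and lists, which are all named or counted, were chosen with earlier results of these data known. All peroxisomal genes of the main list could be named, and of the other list those called, or the 6 with the largest change. A gene that the rule covers is not reported here. The alternatives were a pseudocount of 0.1, no filter, quantile normalization, median-of-ratios scaling, a fit of all 12 libraries, the same without ND replicate 1 (added after seeing the data), a replicate block, the block without ND replicate 1 (also added after seeing the data), removal of the length trend (loess, span 0.5) and each library left out.

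Whether replicate numbers pair libraries was checked from the correlation of deviations from the group means. It was 0.547, 0.342 and 0.122 for numbers 1 to 3 of HFD and ND, each over 0.1, and these were taken as paired. HFD replicate 3 with ND replicate 2, which share no number, had a higher value of 0.626, so that the pairing is uncertain. Replicate 1 of HFD and replicate 1 of ND, which gave 0.547, both held germ cell transcripts. The labels name nothing that a number shares.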

Additional observations from a re-analysis of the deposited data

How the results depend on the processing

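The log2 fold changes named for TJ against HFD, GT against HFD and TJ against GT kept their direction under each alternative run, except those of Pex7, Pex13, Pex14 and Ehhadh in TJ against HFD, and, counted over every named gene under every alternative, a call was lost 70, 52 and 0 times and gained 12, 9 and 0 times. Where a call was lost or a value reversed, the cause was not tested, except that the fit of all 12 libraries includes ND replicate 1. Pex7 was at 0.05 with median-of-ratios scaling or quantile normalization and at 0.38 with the length trend removed. With a library left out, Pex7 ranged from -0.14 to 0.03, Pex13 from -0.04 to 0.03, Pex14 from -0.04 to 0.20 and Ehhadh from -0.08 to 0.22. For TJ against HFD, the peroxisomal genes called higher went from 3 to 0 without a filter, 7 with median-of-ratios scaling and 0 with all 12 libraries. Those called lower went from 1 to 0 without a filter, with all 12 libraries or with the length trend removed, and to 2 with all groups but ND replicate 1. Leaving out a library gave 0 to 5 higher and 0 to 3 lower. Over all genes tested, 198 of 20343 were called higher and 184 lower without a filter. With all 12 libraries, 1 of all 12807 genes tested was called higher and 0 lower. Leaving out a library gave 0 to 1245 higher and 0 to 2167 lower over all genes tested. The other peroxisomal genes called higher went from 10 to 2 without a filter and 0 with all 12 libraries, and to 0 to 13 with a library left out. Those called lower went from 1 to 0 without a filter, with median-of-ratios scaling, with all 12 libraries or with the length trend removed, to 2 with all groups but ND replicate 1, and to 0 to 2 with a library left out. For GT against HFD, the peroxisomal genes called higher went from 1 to 0 without a filter, 4 with median-of-ratios scaling, 2 with quantile normalization, 0 with all 12 libraries, 6 with the length trend removed, 0 with all groups but ND replicate 1 and 0 to 1 with a library left out. The other peroxisomal genes called higher went from 5 to 0 without a filter or with all 12 libraries, 2 with all groups but ND replicate 1 and 0 to 5 with a library left out. Over all genes tested, 2 of 19470 were called higher without a filter and 0 of 12766 with all 12 libraries. With all groups but ND replicate 1 it was 72 of 12766, and with a library left out 1 to 375.

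For HFD against ND, the fit of all groups but ND replicate 1 gave 1 higher and 3 lower, and a library left out 0 to 1 higher and 0 to 3 lower. The other peroxisomal genes called were 1 higher with all 12 libraries, 3 higher and 6 lower with all groups but ND replicate 1, and 0 to 2 higher and 0 to 4 lower with a library left out. Over all genes tested, 1028 of 14430 were called higher and 103 lower with all 12 libraries. With all groups but ND replicate 1, it was 1776 of 13661 higher and 880 lower. With a library left out, it was 0 to 1505 higher and 0 to 593 lower. The direction of several genes turned. With the length trend removed, Phyh was at 0.14, Pex5 at -0.04 and Pex11a at 0.06. With median-of-ratios scaling, Pex5 was at -0.07 and Pxmp4 at -0.01, and with quantile normalization Pex5 was at -0.07, Acad11 at -0.01 and Pxmp4 at -0.06. With all groups but ND replicate 1, Pex5 was at -0.53, Abcd2 at -0.75, Cat at -0.57, Scp2 at -0.62, Acad11 at -1.25, Ephx2 at -0.71 and Pxmp4 at -0.70. With the replicate block and without ND replicate 1, Pex5 was at -0.56, Abcd2 at -0.65, Cat at -0.49, Scp2 at -0.58, Acad11 at -1.23, Ephx2 at -0.78 and Pxmp4 at -0.72. With a library left out, Phyh ranged from -1.44 to 0.38, Gnpat from -0.60 to 0.04, Pex5 from -0.53 to 0.43, Pex11a from -0.57 to 0.31, Abcd2 from -0.75 to 2.05, Cat from -0.57 to 1.95, Scp2 from -0.62 to 1.19, Acad11 from -1.25 to 1.06, Ephx2 from -0.71 to 1.05 and Pxmp4 from -0.70 to 0.62.

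With the replicate block, the peroxisomal genes called in TJ against HFD were 1 higher and 0 lower, the other peroxisomal genes 3 higher and 0 lower, and in GT against HFD the counts called higher were 0 and 0. Over all genes tested, 429 of 12807 were called higher and 769 lower in TJ against HFD. In GT against HFD, it was 1 of 12766 higher and 4 lower. The replicate numbers did not pair these libraries, with correlations of -0.029, -0.051 and 0.227 for TJ with HFD and of 0.198, 0.053 and -0.07 for GT with HFD. For HFD against ND, where the numbers were taken as paired, the block left the count of peroxisomal genes called at 0, and the genes called of all tested went from 255 to 0. Without ND replicate 1, the block took the peroxisomal genes called from 1 higher and 3 lower to 0, the other peroxisomal genes from 2 higher and 4 lower to 0, and all genes tested from 1505 higher and 593 lower to 435 and 66.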

Other observations

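Several genes that do not belong to the peroxisome stood beside these results. The 5 progenitor and stromal markers summed to 1424 to 1505 FPKM in the HFD libraries, 854 to 1080 FPKM in the GT libraries and 645 to 852 FPKM in the TJ libraries, and limma called 2 of the 5 lower in the GT group and 2 of the 5 lower in the TJ group. The 5 endothelial markers summed to 192 to 221 FPKM in the HFD libraries and to 227 to 373 FPKM in the TJ libraries, with 1 of 5 called higher. The 4 mesothelial markers summed to 8.4 to 11 FPKM in the HFD and 3.05 to 15.4 FPKM in the TJ libraries, with 1 of 4 called lower and 4 of 4 log2 fold changes below 0. The 4 brown adipocyte markers summed to at most 11.1 FPKM in the HFD libraries, and the 6 lymphocyte markers to at most 7.79 FPKM in any library, with Ms4a1 listed at 0 in all of them. The lymphocyte sum was 1.66 to 2.21 FPKM in the HFD and 4.23 to 6.4 FPKM in the TJ libraries, with 0 of 2 tested called. The 7 testis germ cell markers summed to 27.2 to 1956 FPKM in the HFD and 0.602 to 8.86 FPKM in the TJ libraries, with 0 of 7 called.

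Of 6 regulators of peroxisomal genes (Ppara, Pparg, Ppard, Rxra, Ppargc1a and Prdm16), 5 were tested in TJ against HFD and 0 were called by limma, with 2 higher and 1 lower at an unadjusted p-value under 0.05. Of all genes tested, 7.41% were called higher and 11.1% lower, and 16.4% were higher and 24.9% lower at that level. In GT against HFD 0 of 5 were called, against 1.83% of all genes tested called higher and 1.81% lower. At the unadjusted level 1 was higher, against 9.98% of all genes tested. In HFD against ND without ND replicate 1, 0 of 6 were called, against 11.0% of all genes tested called higher and 4.34% lower. At the unadjusted level 3 were lower, against 1527 of all 13661 genes tested. In TJ against GT 0 of 5 were called, against 0.148% of all genes tested. At the unadjusted level 2 were lower, against 9.66% of all genes tested.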
